A study of Mus musculus with 9 samples.

Results

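Whole reprogramming cultures of mouse embryonic fibroblasts (MEFs) labelled Per1-/- were compared with whole cultures labelled WT. The members are the 3 libraries of each label, 6 of the 9 libraries in the series, with 1 library per genotype on each of days 4, 7 and 10. The libraries labelled Per2-/- were not compared here but entered the fit. Each is a 10x Chromium 3′ library of single cells, and each was taken as a whole. Unique molecular identifier (UMI) counts were summed per library, with no cell classes, over the barcodes that reached 3000 UMI and had no more than 20% of them in mitochondrial (mt-) genes. Libraries were paired by day. These limits kept 24125 barcodes of WT and 26449 of Per1-/-, which is 50574 of the 81999 kept in the series. Genes of the X and Y chromosomes were left out.

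All cultures, WT included, had received lentiviruses for the BAM genes, which include Brn2 (listed in the files as Pou3f2) and Myt1l, and a transactivator that switches them on in the presence of doxycycline. Days are counted from the change to neuronal medium with doxycycline. The Per1-/- embryos came from the line B6.129-Per1tm1Drw/J, in which Per1 was disrupted by gene targeting. The WT embryos carried neither this allele nor the mutant Per2 allele of the Per2-/- embryos. MEFs were pooled from several embryos from which head and heart had been removed, and the sex of the embryos was not determined. The labels name no embryo, dish or batch. Genotype and the embryos used for it therefore cannot be told apart. A p-value measures only the spread over days between the libraries of the fit, those of Per2-/- included.

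PER1 is a repressor of the circadian clock. The CLOCK and BMAL1 (Arntl) proteins bind E-boxes and activate the Per and Cry genes, whose products feed back on them, and the REV-ERB (Nr1d) and ROR proteins form a further loop on Arntl. The BAM factors turn part of the fibroblasts in such a culture into neurons. MEF preparations are not pure, and tissue macrophages of the embryo, which depend on the receptor Csf1r and express complement C1q and Fc receptors, can survive and divide in them.

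The kept barcodes of the 6 libraries held 114111001 to 350949505 UMI. The WT library of day 10 stood apart: 55.4% of its barcodes were kept, against 86.1% to 94.2% in the other 5, and its median was 11514 UMI per kept barcode against 18628 to 28744. The libraries also differed in sex. Kept barcodes with UMI of Ddx3y, Eif2s3y, Kdm5d or Uty, which lie on the Y chromosome, and none of Xist, the RNA of the inactive X chromosome, made 18.8%, 19.2% and 10.0% of WT on days 4, 7 and 10, and 40.9%, 94.3% and 93.6% of Per1-/-. The Per1-/- library of day 4 thus held many female cells and those of days 7 and 10 almost none. Any 2 libraries of the series shared 11 to 38 kept barcode sequences. The labels call the cells induced neurons, and markers of other cell types were present in every sum: the 16 fibroblast markers added up to 14221 to 24340 CPM (UMI in every 1000000 UMI of a library), normalised by the trimmed mean of M-values (TMM), and the 15 neuron markers to 406 to 736. In sums over a whole culture, fewer cells of a type and less RNA per cell cannot be told apart.

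The targeted gene was examined first. Per1 (ENSMUSG00000020893) spans bases 69095217 to 69109960 of chromosome 11 in GRCm38, on the plus strand. It was measured at 6.38, 6.89 and 7.69 normalised CPM in WT on days 4, 7 and 10 and at 9.40, 10.5 and 11.4 normalised CPM in Per1-/-. On each day the library with the knockout label held more of the transcript, and the groups did not overlap. The log2 fold of Per1-/- over WT was 0.58 ± 0.11 (SE), with an adjusted p of 0.0429 in the quasi-likelihood test of edgeR. A 3′ library counts any transcript that keeps its 3′ end, so this value neither checks the labels nor measures the protein. The study reports, from western blots, that Per1-/- MEFs lacked the PER1 protein. Every direction below compares libraries by their labels. The call was close to the threshold of 0.05 and was lost in 18 of 30 alternative settings, while the fold stayed between 0.32 and 0.64 in all of them.

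Of the 24 clock genes, all of which were measured, 2 rose, 1 fell and 21 did not pass. Across all 18075 genes tested, 2.26% were called higher and 0.183% lower in Per1-/-. Beside Per1, Bhlhe41 (DEC2), a repressor that competes for E-boxes, was the other riser, from 11.1, 20.2 and 19.7 normalised CPM in WT to 14.8, 44.8 and 44.9 in Per1-/-. Its log2 fold was 0.93 ± 0.17 (adjusted p = 0.0343), and 60.1% of its UMI lay in barcodes with macrophage markers, which are described further on. Rorb, a ROR family activator of Arntl, fell from 10.4, 7.48 and 7.37 to 7.68, 4.16 and 3.82 normalised CPM, a log2 fold of -0.74 ± 0.15 (adjusted p = 0.0469). Arntl itself stood at 12.7, 13.8 and 13.1 in WT and at 10.7, 11.3 and 9.56 in Per1-/- (-0.33 ± 0.09, adjusted p = 0.114). Per3 stood at 22.4, 31.4 and 33.5 against 25.5, 42.4 and 51.5 (0.41 ± 0.12, adjusted p = 0.147). Of the 24 clock genes 9 were higher and 7 lower on all 3 days, against 4202 and 3881 of all 18075 genes tested. Arntl and Per3 were among the clock genes that kept 1 sign without passing. Per2, Cry1, Cry2, Clock, Nr1d1 and Dbp, a PAR bZIP output gene of the clock, had log2 folds from -0.12 to 0.11, none of which passed (adjusted p from 0.548 to 0.875). The median log2 fold of the list was 0.06, against 0.01 over all genes tested.

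Promoter windows of the 3 clock genes that were called are shown because clock proteins are known to act on such sites. Only windows that hold the motif named for the gene are shown, so the match in each follows from this choice. The windows of Per1 and Rorb lie within the span of the gene. Windows are those of RefSeq on GRCm38.p6, from 250 bases before to 50 after an annotated start, and 19 of the 24 clock genes had at least 1. Capitals mark the E-box CACGTG in Per1 (the window at chr11:69098699-69098998, plus strand) and in Bhlhe41 (chr6:145865371-145865670, minus strand), and the D-box TTANGTAA, read on either strand, in Rorb (chr19:19001068-19001367, minus strand).
Per1: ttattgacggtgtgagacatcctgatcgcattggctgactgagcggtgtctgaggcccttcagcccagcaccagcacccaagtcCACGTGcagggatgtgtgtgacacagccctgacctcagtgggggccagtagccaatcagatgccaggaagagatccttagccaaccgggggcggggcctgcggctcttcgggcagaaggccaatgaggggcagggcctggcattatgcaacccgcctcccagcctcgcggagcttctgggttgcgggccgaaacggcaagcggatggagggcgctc
Bhlhe41: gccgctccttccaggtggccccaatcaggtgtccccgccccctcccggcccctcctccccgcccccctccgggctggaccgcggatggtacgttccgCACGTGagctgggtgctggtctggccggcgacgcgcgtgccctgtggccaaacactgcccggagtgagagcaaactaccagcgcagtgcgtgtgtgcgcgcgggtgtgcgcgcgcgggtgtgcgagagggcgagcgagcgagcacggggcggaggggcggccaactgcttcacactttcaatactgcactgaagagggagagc
Rorb: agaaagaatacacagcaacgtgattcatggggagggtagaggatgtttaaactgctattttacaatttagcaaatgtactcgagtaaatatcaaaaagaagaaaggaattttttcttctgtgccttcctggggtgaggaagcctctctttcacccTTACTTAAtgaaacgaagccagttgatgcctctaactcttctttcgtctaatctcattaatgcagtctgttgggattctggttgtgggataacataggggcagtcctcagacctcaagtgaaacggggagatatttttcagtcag
An E-box was present in windows of 5 of the 19 clock genes (26.3%) and of 8.09% of all 27025 genes with a window, and a D-box in 2 of 19 (10.5%) and in 2.72% of all. Among the genes tested these shares were 10.6% and 2.03%. A match of letters is a description and says nothing of whether a factor was bound.

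Over all genes, 441 passed the adjusted p of 0.05 (2.44%), of which 408 were higher and 33 lower in Per1-/-. The median ratio of the 408 was 2.04 on day 4, 3.02 on day 7 and 2.52 on day 10, and all 408 were higher on each of the 3 days. One of them, AC167229.1, has no ratio on day 10, where its WT library held 0 UMI. The 33 had median ratios of 0.675, 0.507 and 0.488, also with 1 sign on the 3 days. At an unadjusted p under 0.05, 1929 genes were higher and 1279 lower. By size, 558 genes (3.09%) were at least 1.5-fold higher on each day and 161 (0.891%) at least 1.5-fold lower. All 3 Per1-/- libraries lay above all 3 WT libraries for 959 genes (5.31%) and below them for 1099 (6.08%). Of the 408 higher genes 38 were among the former, and of the 33 lower genes 18 among the latter.

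These counts depended on the pairing by day and on single libraries. With genotype alone in the model and no day term, no gene passed in edgeR (0 of 18075, with 1323 at an unadjusted p under 0.05), while the median log2 fold was 1.42 for the 408 and -0.80 for the 33. Without day 7 or without day 10 no gene passed either (1105 and 1702 at an unadjusted p under 0.05, with medians of 1.17 and 1.32 for the 408), and without day 4, 1024 were higher and 624 lower. Leaving out 1 library moved the number of higher genes to 105 (WT of day 7), 123 (WT of day 10), 137 (Per1-/- of day 7), 150 (Per1-/- of day 10) and 1258 (Per1-/- of day 4). The number of lower genes went to 1, 2, 1, 3 and 822 in the same order, to 11 without Per2-/- of day 7 and to 21 without Per2-/- of day 10. In each of the 9 fits without 1 library all 408 genes kept their sign, as did all 33. These genes were called in the same libraries with 1 sign on all 3 days. A kept sign, here and in the fits below, is therefore not separate evidence. The sex of the cells moved with genotype: with the Y-linked share of each library as a covariate no gene passed in edgeR (782 at an unadjusted p under 0.05). All 408 and all 33 kept their sign there, with median log2 folds of 0.96 against 1.32 and -0.49 against -0.87. In barcodes with Y-linked UMI and no Xist 1 of 16369 genes passed (0.00611%, with 2204 at an unadjusted p under 0.05), while all 405 of the 408 that could be tested there were higher, with a median log2 fold of 1.20 against 1.32. These barcodes are part of the sums in which the 408 were called, and most of the Per1-/- sums of days 7 and 10. The part of sex in the difference was not tested.

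The called genes divided by the barcodes that carried them. A barcode was called macrophage-marked where 18 macrophage markers made at least 0.5% of its UMI. Of the 408 higher genes, 222 had 90% or more of their UMI in such barcodes, 134 had 50% to 90%, 31 had 20% to 50% and 21 had under 20%. All 33 lower genes had under 20% there, as did 15543 of all 18075 genes tested. Of all genes tested, 352 had 90% or more, 470 had 50% to 90% and 1710 had 20% to 50%. Over all genes tested the median gene had 8.73% of its UMI in these barcodes, against 92.2% among the higher and 3.18% among the lower genes.

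Macrophage-marked barcodes were more frequent in Per1-/- on each day. They numbered 203 of 8684 in WT on day 4 (2.34%, exact Clopper-Pearson 95% interval 2.03% to 2.68%), 696 of 8594 on day 7 (8.10%, 7.53% to 8.70%) and 937 of 6847 on day 10 (13.7%, 12.9% to 14.5%). In Per1-/- they numbered 518 of 10890 (4.76%, 4.36% to 5.17%), 1702 of 6399 (26.6%, 25.5% to 27.7%) and 1770 of 9160 (19.3%, 18.5% to 20.1%). These intervals cover counting error only. The mean difference over the 3 days was 8.85 percentage points (SD 8.51, n = 3 days), higher on 3 of 3 days, with p = 0.25 in a two-sided exact permutation test within days, the smallest p that 3 pairs can give. Without day 7 the mean difference was 4.03 percentage points. The macrophage-marked barcodes held 3.06%, 10.0% and 11.3% of the kept UMI in WT and 5.99%, 28.3% and 24.9% in Per1-/-.

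The order on day 10 depended on this limit. At 0.2% of UMI the shares on day 10 were 19.9% in WT and 19.5% in Per1-/-, and at 1% they were 9.41% and 18.7%. The WT library of day 10 had 717 barcodes near the limit, against 40 to 79 in the other 5 libraries, and its macrophage-marked barcodes had a median of 5614 UMI, against 13378 in its other barcodes. Among barcodes with Y-linked UMI and no Xist, the shares were 2.02%, 6.31% and 9.33% in WT and 2.60%, 26.2% and 19.96% in Per1-/-. On day 4 these 2 intervals overlapped (1.40% to 2.83% and 2.16% to 3.11%).

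**Figure D1:**
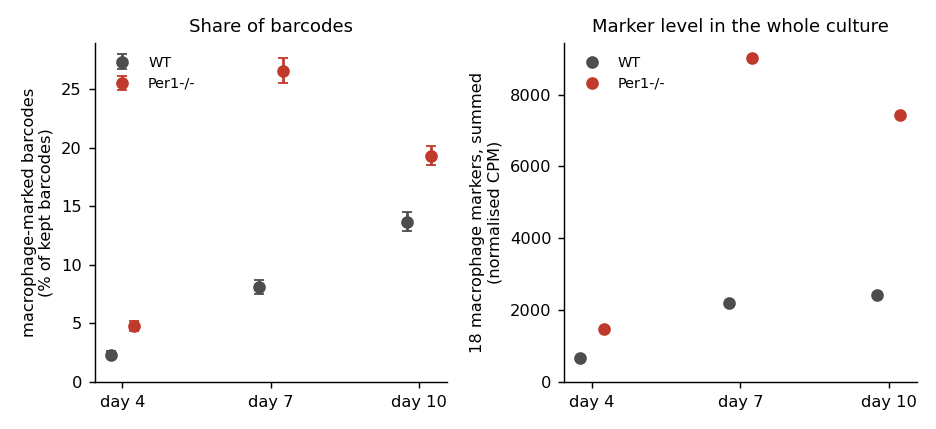
Left, macrophage-marked barcodes as a percentage of kept barcodes in each of the 6 libraries with exact 95% intervals for counting error. Right, the summed level of the 18 macrophage markers in the whole library in normalised CPM, between 659 for the lowest WT and 9030 for the highest Per1-/- library.

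Of the 18 macrophage markers, 17 rose and all 18 were higher on 3 of 3 days, with a median log2 fold of 1.47 and a range of 1.22 to 1.82. Their summed level was 659, 2210 and 2427 normalised CPM in WT and 1461, 9030 and 7440 in Per1-/-. Csf1r, the receptor for the macrophage growth factors CSF1 and IL-34, stood at 12.5, 42.2 and 51.7 normalised CPM in WT and 24.3, 190 and 152 in Per1-/- (log2 fold 1.55 ± 0.20, adjusted p = 0.00934). Lyz2, the lysozyme of myeloid cells, held the most UMI of the markers, at 179, 472 and 556 against 333, 2689 and 2042 normalised CPM. Itgam (CD11b), an integrin chain, was the marker that did not pass (1.22 ± 0.26, adjusted p = 0.0643). Levels of both genotypes were several times higher on days 7 and 10 than on day 4, and Per1-/- was above WT within each day.

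Trem2, a lipid receptor that signals through the adaptor Tyrobp, had the smallest p of all genes. It stood at 18.9, 82.5 and 79.4 normalised CPM in WT and 58.9, 283 and 259 in Per1-/-, a log2 fold of 1.71 ± 0.08 (adjusted p = 0.000705). Its ratios on the 3 days were nearly equal, at 3.12, 3.43 and 3.26. The other 14 of the 15 higher genes with the smallest p were Nrros, Selplg, Cd53, Bin2, Wdfy4, C1qc, Fcgr3, Ptpn18, Ctss, Ccl3, Cd68, C1qb, Lrrc25 and Cd84, with log2 folds of 1.34 to 1.82 and, for the 9 that are not among the markers defining these barcodes, 95.5% to 98.4% of their UMI in macrophage-marked barcodes. They include a protein that holds latent TGF-beta on myeloid cells (Nrros), a selectin ligand (Selplg), a leukocyte tetraspanin (Cd53), the lysosomal protease cathepsin S (Ctss) and a chemokine (Ccl3).

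**Figure D2:**
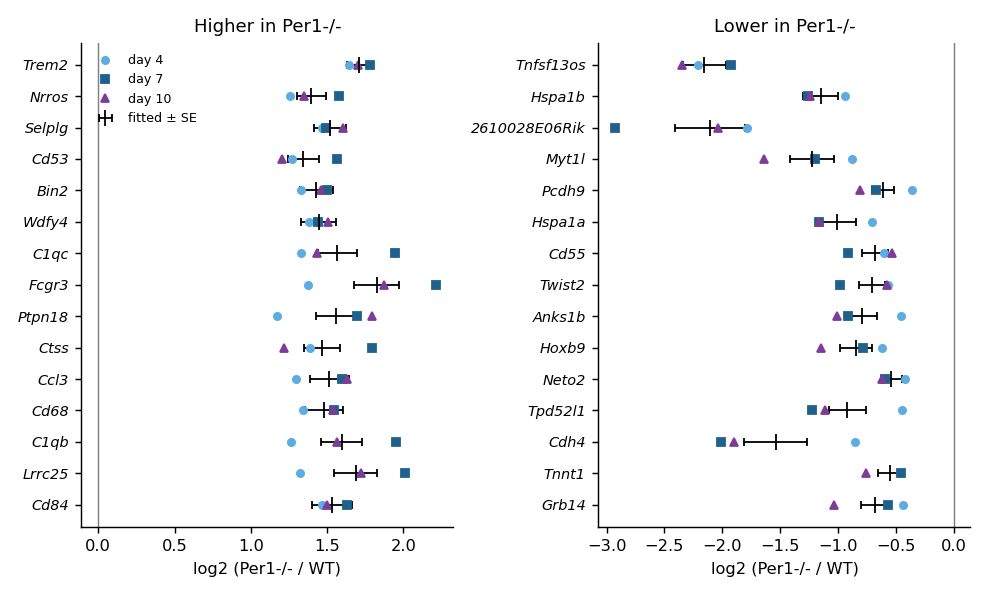
Log2 ratio of Per1-/- over WT in normalised CPM on each day (coloured symbols) with the fitted log2 fold and its SE (black), for the 15 higher and the 15 lower genes with the smallest p. The points of a gene lie on 1 side of 0, and Tnfsf13os lies lowest on day 10.

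Receptors that carry signals through ITAM motifs were counted with their adaptors. Of the 16 measured Fc receptors, lectins and ITAM adaptors, 15 rose and 0 fell, with a median log2 fold of 1.68. Of all genes 2.26% rose. Macrophage-marked barcodes held 97.4% of the UMI of this list, against 12.4% over all genes tested, and its median without those barcodes was 0.41. Fcer1g and Tyrobp of this list are among the markers that define them. Among the members that passed with all kept barcodes, Fcgr2b, the inhibitory receptor for IgG, differed most: 0.585, 5.24 and 8.67 normalised CPM in WT against 2.25, 51.3 and 63.3 in Per1-/- (2.74 ± 0.26, adjusted p = 0.00388). Fcgr3, an activating IgG receptor, stood at 5.63, 21.7 and 25.5 against 14.6, 101 and 93.6 (1.82 ± 0.15). The shared chain Fcer1g went from 79.5, 259 and 271 to 177, 900 and 888, and Tyrobp from 67.2, 218 and 222 to 134, 704 and 598. The kinases Syk (1.35 ± 0.13) and Lyn (1.001 ± 0.11) rose as well. Clec4e, a lectin for glycolipids, was the member that did not pass, and it rested on 1 library: 0.0454, 0.172 and 0.233 normalised CPM in WT and 0.289, 7.85 and 0.387 in Per1-/-. Members of the Clec4a group are close paralogs, and how the counting split reads among them was not tested.

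Of 15 complement genes 5 rose and 0 fell (median log2 fold 1.22). Macrophage-marked barcodes, which the C1q chains and Itgam help to define, held 86.6% of the UMI of this list. Without those barcodes its median was 0.41. The C1q chains, which start the classical pathway, all rose, with C1qb at 62.1, 222 and 249 normalised CPM in WT and 149, 859 and 738 in Per1-/- (1.60 ± 0.13, adjusted p = 0.00366). The anaphylatoxin receptor C3ar1 rose by 1.39 ± 0.14 and the integrin chain Itgb2 by 1.21 ± 0.17. Of 15 measured scavenger receptors and genes of lipid handling 8 rose and 0 fell (median 0.94). Macrophage-marked barcodes, which Mrc1 helps to define, held 57.4% of their UMI. Without those barcodes the median was 0.26, and DESeq2 called 0 members higher and 1 lower. Mrc1, the mannose receptor, stood at 28.5, 120 and 128 against 67.2, 434 and 487 normalised CPM (1.69 ± 0.21), and Stab1 at 6.56, 10.9 and 15.3 against 17.8, 55.2 and 61.1 (1.89 ± 0.29). Apoe and Lpl, which other cells also express, had log2 folds of 0.59 ± 0.23 and 0.90 ± 0.32 and did not pass.

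Of 30 lysosomal genes 7 rose and 0 fell (median 0.55), among them Ctss, Ctsc, Lgmn, Ctsb, Grn and Gusb, with log2 folds of 0.72 to 1.47. The list is used by every cell, and 41.0% of its UMI lay in macrophage-marked barcodes, against 12.4% over all genes tested. Ctsb, a cathepsin, went from 378, 772 and 678 to 609, 1869 and 1674 normalised CPM. Cd63, a membrane protein, had 15.8% of its UMI there and did not pass (0.17 ± 0.12). Among 10 MHC class I genes H2-K1 (1.15 ± 0.20) and H2-D1 (1.03 ± 0.19) rose, and reads of these near-identical genes may be split between them. None of 7 MHC class II genes passed.

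Chemokines and inflammatory response genes moved less evenly. Of 27 chemokines and receptors 7 rose and 0 fell: Ccl3, Ccl4, Ccl6, Ccl12, Pf4, Cxcl16 and Ccr2. Ccl3 stood at 2.57, 11.9 and 12.9 normalised CPM in WT and 6.30, 36.2 and 39.9 in Per1-/- (1.52 ± 0.13). Cxcl12, a chemokine of fibroblasts with 2.12% of its UMI in macrophage-marked barcodes, was at 130, 148 and 130 against 119, 101 and 86.1 and did not pass (-0.42 ± 0.11, adjusted p = 0.124). Of 31 TNF and NF-kB response genes 2 rose, Tnfrsf1b (1.15 ± 0.17) and Cxcl16 (1.32 ± 0.24), and 0 fell. Of 39 measured interferon response genes 1 rose, Ifi207 (1.28 ± 0.21), a member of a family of close paralogs, which is near the 2.26% of all genes.

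None of the cytokines that the study names passed in edgeR with all kept barcodes, while Tnf passed in 5 of 29 alternative settings, Il6 in 4 of 28 and Ccl2 in 2 of 30. Tnf stood at 1.04, 2.75 and 1.92 normalised CPM in WT and 2.22, 8.37 and 4.15 in Per1-/- (1.29 ± 0.33, adjusted p = 0.11). The chemokine Ccl2 was lower in Per1-/- on day 4 (17.6 against 23.9) and higher on days 7 (69.7 against 8.13) and 10 (33.4 against 10.8), with 36.1% of its UMI in macrophage-marked barcodes (1.49 ± 0.58, adjusted p = 0.243). Marco, a scavenger receptor, reached 11.7 normalised CPM in Per1-/- on day 7 and at most 1.24 in the other 5 libraries. Il6 was 0.272, 0.152 and 0.258 against 0.402, 0.722 and 0.684, with 3.88% of its UMI in macrophage-marked barcodes (1.42 ± 0.35, adjusted p = 0.103). Il1b, Il10, Il34 and Csf1, a growth factor for macrophages, did not pass either. Of the 20 genes the study names, 5 rose: Csf1r, C1qa, Adgre1, Fcgr3 and Ms4a4a. The study drew part of that list from these samples, so this count is not independent evidence of a direction.

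Windows of 3 of the 15 genes with the smallest p among the higher ones, of 12 with a RefSeq window, held the core of a binding motif of PU.1, a factor of the myeloid lineage. They are shown with GAGGAAGT, read on either strand, in capitals: C1qc (chr4:136892865-136893164, minus strand), Ctss (chr3:95526536-95526835, plus strand) and Cd53 (chr3:106790100-106790399, minus strand).
C1qc: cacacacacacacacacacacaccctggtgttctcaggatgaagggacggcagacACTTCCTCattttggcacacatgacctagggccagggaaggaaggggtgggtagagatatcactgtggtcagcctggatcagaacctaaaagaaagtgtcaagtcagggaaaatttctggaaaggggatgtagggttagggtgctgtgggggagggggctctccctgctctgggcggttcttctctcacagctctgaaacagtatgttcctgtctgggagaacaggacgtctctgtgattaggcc
Ctss: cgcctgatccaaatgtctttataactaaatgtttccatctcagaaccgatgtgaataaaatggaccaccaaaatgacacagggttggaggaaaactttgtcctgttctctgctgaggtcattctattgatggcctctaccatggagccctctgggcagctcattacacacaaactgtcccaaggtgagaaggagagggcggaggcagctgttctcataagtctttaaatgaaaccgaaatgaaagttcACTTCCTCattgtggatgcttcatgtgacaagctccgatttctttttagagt
Cd53: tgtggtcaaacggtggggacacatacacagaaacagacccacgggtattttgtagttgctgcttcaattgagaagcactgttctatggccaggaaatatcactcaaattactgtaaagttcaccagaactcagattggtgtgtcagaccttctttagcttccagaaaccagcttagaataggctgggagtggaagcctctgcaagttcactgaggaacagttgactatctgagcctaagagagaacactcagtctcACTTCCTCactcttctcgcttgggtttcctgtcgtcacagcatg
Among the 356 higher genes with 50% or more of their UMI in macrophage-marked barcodes, 256 had a window and 43 of them (16.8%) held this motif, against 3.69% of all genes with a window and 3.56% of the genes tested. The E-box was present in 8.98% of the 256, in 8.09% of all and in 10.6% of the genes tested. No binding was measured.

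When macrophage-marked barcodes were left out of the sums, no gene passed in edgeR (0 of 17784, with 1754 at an unadjusted p under 0.05 and a smallest adjusted p of 0.116). limma-voom called 0 genes as well (1582 at an unadjusted p under 0.05), and DESeq2 called 171 higher (0.962%) and 102 lower (0.574%). The median log2 fold of the 408 higher genes was 1.32 with all barcodes and 0.26 without the macrophage-marked ones, where 380 of them could be tested and 302 kept their sign. The macrophage markers among them define the barcodes removed. For the other 391 genes the median was 1.31 and 0.25, and 287 of the 363 that could be tested kept their sign. The median of the 33 lower genes, which have few UMI in the barcodes removed, was -0.87 and -0.72. Trem2 moved from 1.71 ± 0.08 to 0.81 ± 0.38.

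**Figure D3:**
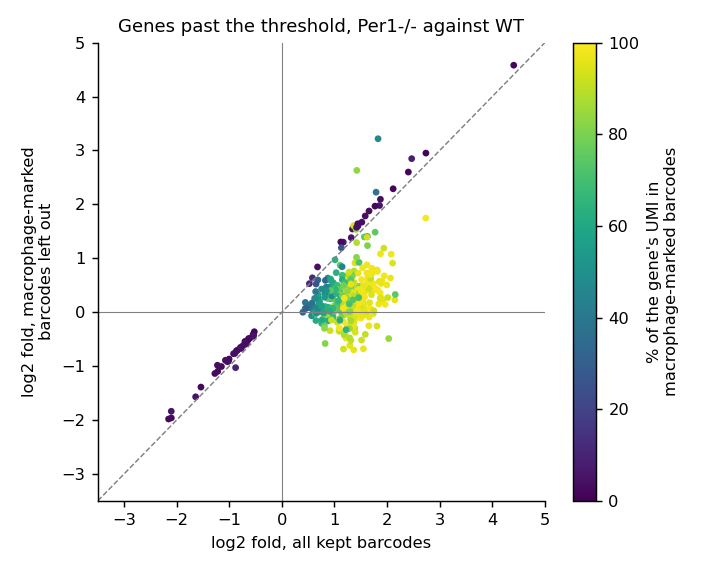
Each point is a gene past the threshold, by its log2 fold with all kept barcodes (x) and with macrophage-marked barcodes left out (y), coloured by the percentage of its UMI in those barcodes; the dashed line marks equal folds. Of 441 called genes 413 could be fitted in both, and those with few UMI in macrophage-marked barcodes (dark) lie along the line while most others (light) lie near 0. The called macrophage markers, which define those barcodes, are among the points.

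Within macrophage-marked barcodes alone, 17 genes were higher (0.124%) and 79 lower (0.577%) of 13694 tested, and 12 of the 408 and 7 of the 33 passed in the same direction. Markers of other cells moved with this comparison: the median log2 fold in these barcodes was -0.43 for the fibroblast, -0.39 for the collagen and matrix and -0.63 for the neuron list. In WT the median share of the markers in a marked barcode's UMI was 2.36%, 2.36% and 1.504% on days 4, 7 and 10. In Per1-/- it was 2.45%, 3.22% and 3.01%. The part of either in the values below was not tested. Fcgr2b was one of them, at 19.1, 52.3 and 77.5 CPM of these barcodes in WT and 36.7, 170 and 240 in Per1-/- (log2 fold 1.57 ± 0.18, adjusted p = 0.0261). Slc43a2, an amino acid transporter, stood at 83.0, 97.6 and 97.8 against 144, 167 and 142 CPM (0.81 ± 0.09, adjusted p = 0.0261). Trem2 stood at 607, 826 and 713 against 971, 941 and 979 CPM and did not pass (0.54 ± 0.12, adjusted p = 0.0696). Without the 17 called macrophage markers, the other 391 of the 408 had a median of 1.31 in the whole sums and of 0.31 in these barcodes, where 378 of them could be tested. The marked barcodes were defined by 18 of the genes compared, and no log2 fold of any of those 18 within them is given.

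The 21 higher genes with under 20% of their UMI in macrophage-marked barcodes were, beside Per1, Klf14, Tlcd2, Ptgis, AC167229.1, Itih5, Tnfsf18, Car3, Cpxm2, Myh1, Myh8, Cilp, Slc16a14, Gm15609, Slc13a5, Krt23, Pappa, 4930447C04Rik, Cep95, Gm6093 and Rbm46, named here as a whole after their values were seen. Klf14, a Krüppel-like transcription factor, stood at 0.857, 2.14 and 2.88 normalised CPM in WT and 2.17, 4.70 and 8.31 in Per1-/- (1.34 ± 0.16, adjusted p = 0.00727). Tlcd2, a membrane protein, was flat in WT at 7.76, 7.41 and 9.19 and stood at 12.9, 19.6 and 23.3 in Per1-/- (1.17 ± 0.15, adjusted p = 0.00857). Their groups compare differently: Tlcd2 did not overlap between genotypes, whereas Klf14 grew over days in both. Ptgis, the prostacyclin synthase, stood at 6.69, 7.38 and 6.01 against 11.7, 21.2 and 12.2 (1.12 ± 0.14, adjusted p = 0.00868).

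Itih5, which binds hyaluronan, went from 7.79, 8.97 and 9.96 to 12.8, 25.2 and 43.6 normalised CPM (1.45 ± 0.23). Pappa, the protease that cleaves IGFBP4 and so frees IGF, held the most UMI of the 21, at 45.6, 69.7 and 69.5 against 55.6, 134 and 120 (0.68 ± 0.13, adjusted p = 0.0426). Cilp, a cartilage matrix protein, went from 0.540, 2.29 and 4.83 to 0.914, 14.98 and 19.7 (1.87 ± 0.33). Car3, a carbonic anhydrase of muscle and fat, climbed from 1.05 to 5.49 and 51.9 over the days in WT and from 3.35 to 24.2 and 127 in Per1-/- (1.66 ± 0.27). With macrophage-marked barcodes left out, 19 of the 21 passed in DESeq2 and 0 passed in edgeR or limma-voom. Their folds could move little there (median 1.67 against 1.52), since the 21 were chosen for having few UMI in those barcodes. Car3 was the gene called in barcodes with Y-linked UMI and no Xist. AC167229.1, Gm15609 and Gm6093 were at most 0.185 normalised CPM in every library, so their folds rest on few UMI.

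Igf1, the growth factor whose binding protein Pappa cleaves, rose too: 94.1, 188 and 238 normalised CPM in WT against 163, 311 and 347 in Per1-/- (0.68 ± 0.11, adjusted p = 0.0204). Macrophage-marked barcodes held 31.6% of its UMI, and in the other barcodes it stood at 83.5, 149 and 220 against 137, 211 and 277 CPM. It was the 1 riser among 10 genes of the IGF axis, none of which fell. Of 40 cell cycle genes 1 rose, Pcna, a clamp for DNA polymerases (0.44 ± 0.07, adjusted p = 0.0201), and 0 fell, near the 2.26% of all genes called higher. The median log2 fold of the list was 0.26, and -0.05 without the macrophage-marked barcodes.

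Of the BAM list 1 gene fell, and of the neuron list 0. Myt1l, a BAM factor that represses non-neuronal genes, stood at 15.6, 22.4 and 10.4 normalised CPM in WT and 8.47, 9.75 and 3.36 in Per1-/- (-1.23 ± 0.19, adjusted p = 0.0197). Pou3f2 stood at 789, 340 and 189 against 543, 174 and 158 (-0.58 ± 0.15, adjusted p = 0.104). Both were lower in Per1-/- on each day, and Pou3f2 did not pass. Counts of these genes can hold transcripts of the transduced as well as of the cell's own genes, and which of them a count came from was not tested. Pclo, a scaffold of presynaptic active zones, was at 90.6, 37.1 and 33.6 against 63.8, 17.2 and 16.5 (-0.87 ± 0.16, adjusted p = 0.0353). It was the 1 gene that fell among 26 measured synaptic genes, where 0 rose and the median was -0.41.

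Anks1b, a postsynaptic scaffold, went from 11.5, 12.01 and 11.6 to 8.39, 6.39 and 5.76 normalised CPM (-0.79 ± 0.13). Neto2, an auxiliary subunit of kainate receptors, fell by 0.54 on the log2 scale, Bcl11b, a transcription factor of cortical projection neurons, by 1.28, and the LIM homeobox gene Lhx3, of motor neurons, by 0.52. Bcl11b and Lhx3, like Nts, Vgll3 and Wnt2 below, were named after their values were seen. Nts, the precursor of the peptide neurotensin, stood at 67.2, 89.8 and 107 against 26.1, 39.5 and 71.4 (-1.07 ± 0.21, adjusted p = 0.0451). No marker of the neuron list passed in edgeR. Tubb3, the neuronal tubulin, was at 201, 124 and 95.7 against 191, 70.5 and 76.6 (-0.41 ± 0.23, adjusted p = 0.39), and Map2 at 112, 103 and 105 against 107, 66.0 and 56.0 (-0.53 ± 0.16, adjusted p = 0.153). The median of the 15 neuron markers was -0.53, and 5 of them were lower on all 3 days. Without macrophage-marked barcodes it was -0.39, with no marker called in edgeR and 1 called lower in DESeq2, Syt1 (-0.68, adjusted p = 0.0414). The summed level of the list was 736 normalised CPM in both genotypes on day 4, 691 against 427 on day 7 and 690.2 against 406 on day 10.

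Twist2, a bHLH factor of dermal fibroblasts, went from 34.98, 26.4 and 20.7 to 23.6, 13.4 and 13.9 normalised CPM (-0.70 ± 0.11, adjusted p = 0.0225). Hoxb9, a homeobox gene of the trunk, went from 54.6, 40.9 and 35.7 to 35.6, 23.7 and 16.2 (-0.84 ± 0.14, adjusted p = 0.0238). It was the 1 gene called among 38 measured Hox genes, whose median was -0.13, and the list spread from -1.97 to 1.24. Cdh4 (R-cadherin) went from 16.9, 11.2 and 8.79 to 9.32, 2.78 and 2.36 (-1.54 ± 0.27). Cd55, which protects cells from complement, went from 72.6, 121 and 115 to 48.0, 64.4 and 79.6 (-0.68 ± 0.11, adjusted p = 0.0216). Vgll3 (-0.55 ± 0.11), a cofactor of TEAD factors, and Wnt2 (-0.89 ± 0.18), a Wnt ligand, fell as well. The other lower genes were Pcdh9, 2610028E06Rik, Tpd52l1, Grb14, Gm15675, Tspan5, Gm5444, Fbxo2, En2, Wdr17, Tmem200a, Cbarp and A830010M20Rik.

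The heat shock genes Hspa1a and Hspa1b fell by 1.004 and 1.15 on the log2 scale. Hspa1b stood at 8.56, 4.81 and 5.28 normalised CPM in WT and 4.46, 2.01 and 2.24 in Per1-/- (SE 0.15, adjusted p = 0.00997), and the groups did not overlap. Their coding sequences are nearly identical, so the split of reads between them is uncertain, but both moved the same way. They were the 2 called of 22 immediate early and heat shock genes. Aldh1l1, a folate enzyme used as an astrocyte marker, went from 9.36, 7.89 and 7.82 to 5.88, 4.34 and 3.55 (-0.88 ± 0.17, adjusted p = 0.0426), and was the 1 called of 8 astrocyte markers. Fabp7, with the most UMI of them, was at 253, 186 and 188 against 135, 44.9 and 22.2 and did not pass (-1.80 ± 0.63, adjusted p = 0.202). The astrocyte list was mixed, with log2 folds from -1.80 to 0.84 and 4 of 8 members lower on all 3 days. In DESeq2 without macrophage-marked barcodes 1 astrocyte marker was called higher and 1 lower. Of 14 measured skeletal muscle markers 1 fell, Tnnt1, the slow troponin T (-0.55 ± 0.10), and 0 rose. The median of that list was 0.25, with 5 members higher and 2 lower on all 3 days.

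Genes close to the targeted locus were described separately. Of 368 genes tested within 10 Mb of Per1 on either side, 14 rose and 2 fell, 4.35% against 2.44% of all genes. Of the 14, 10 genes, among them Cd68, Tnfrsf13b, Pik3r6, Clec10a and Arrb2, had 68.5% to 97.1% of their UMI in macrophage-marked barcodes. Counting only called genes with under 20% of their UMI there, 6 lay within this distance (1.63%), against 54 of all 18075 (0.299%) and 3 of the 1074 genes on the rest of chromosome 11 (0.279%). The 6 were Tnfsf13os, Tmem88, Myh1, Myh8, Slc13a5 and Tlcd2.

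Tnfsf13os, an antisense transcript 0.572 Mb from Per1, had the smallest p of the lower genes: 1.61, 1.77 and 1.94 normalised CPM in WT against 0.347, 0.468 and 0.381 in Per1-/- (-2.16 ± 0.18, adjusted p = 0.00366). With macrophage-marked barcodes left out the log2 fold of Tnfsf13os was -1.98 ± 0.18. It spans 69682138 to 69691141 of chromosome 11 (plus strand) and overlaps Tnfsf12 and Tnfsf13 on the other strand. How well the counting kept the strands apart here was not tested. Tmem88, at 0.287 Mb, an inhibitor of Wnt signalling, went from 4.54, 3.16 and 3.06 to 3.06, 1.40 and 1.18 (-1.02 ± 0.20). Myh1 and Myh8, myosin heavy chains of skeletal muscle of the same gene cluster at 1.87 and 1.79 Mb, rose by 2.74 ± 0.45 and 2.40 ± 0.42. Myh8 stood at 0.717, 1.32 and 1.44 normalised CPM in WT and 2.28, 13.6 and 5.50 in Per1-/-. These genes are close paralogs, and reads may be split between them. The skeletal muscle list holds neither gene. None of its markers rose in edgeR, and 2 were called higher in DESeq2 without macrophage-marked barcodes. Slc13a5, a citrate transporter at 3.13 Mb, was at most 0.113 in WT and 0.165, 0.408 and 0.555 in Per1-/-, and Tlcd2 lies at 6.35 Mb.

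**Figure D4:**
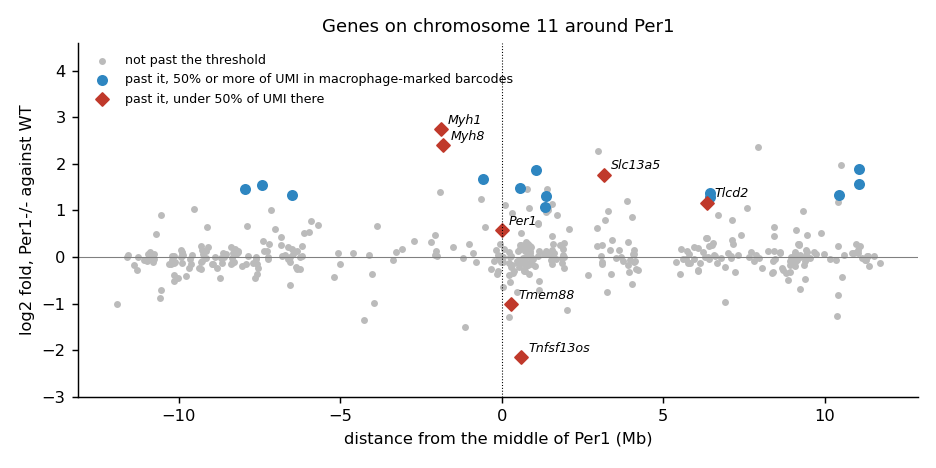
Log2 fold of Per1-/- over WT for genes tested on chromosome 11, by their distance in Mb from the middle of Per1 (dotted line). Called genes with 50% or more of their UMI in macrophage-marked barcodes (blue circles) all lie above 0, and those with under 50% (red diamonds, named) lie on both sides of it, from Tnfsf13os at -2.16 to Myh1 at 2.74.

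Markers of the remaining cell types did not pass in edgeR. None of 16 fibroblast markers was called there (median 0.06), nor any of 31 collagen and matrix genes, among them Col1a2 at 3695, 5356 and 5899 normalised CPM in WT and 4409, 5646 and 6449 in Per1-/-. None of 9 mesothelium markers was called in edgeR, and their median of 1.74 was the highest of all lists. In DESeq2 without macrophage-marked barcodes, which called 0.962% of all genes higher, 4 of these 9 were called higher, as were 2 of the fibroblast and 1 of the smooth muscle and pericyte markers. Lrrn4 came nearest, at 1.18, 0.900 and 0.603 against 2.15, 7.47 and 5.99 (2.56 ± 0.52, adjusted p = 0.0529), and Upk3b was higher in WT on day 4 (2.68 against 2.21) and lower on days 7 (1.30 against 7.73) and 10 (0.155 against 8.28). The summed mesothelium level was 19.9, 8.97 and 5.74 in WT and 17.8, 35.4 and 36.3 in Per1-/-. Schwann cell, smooth muscle and pericyte, endothelium and keratinocyte markers had medians from -0.30 to 0.35 and no calls in edgeR. The Schwann cell median turned from -0.30 to 1.03 in barcodes with Y-linked UMI and no Xist, where no member passed either. Erythroid and other leukocyte markers were near 0, with summed levels of at most 0.999, and most of them were not measured well enough to be tested, the haemoglobin genes and S100a9 among them.

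Several further groups had no calls in edgeR. None of 13 genes of the mitochondrial genome, 18 of glycolysis, 16 of cholesterol synthesis, 17 of the p53 and Cdkn group or 17 of the neuronal cytoskeleton passed. None of 70 measured ribosomal protein genes passed, with a median of 0.16. Of the 70, 44 were higher on all 3 days, a larger part than the 4202 of all 18075 genes tested. All Per1-/- libraries lay above all WT libraries for 24 of the 70, against 5.31% of all genes. Of 51 axon guidance genes 1 rose, Sema4d (0.81 ± 0.16, 82.9% of UMI in macrophage-marked barcodes), and 0 fell, against 2.26% and 0.183% of all genes. The median was -0.20, with 8 of the 51 members higher and 19 lower on all 3 days, against 4202 and 3881 of all 18075 genes tested.

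**Figure D5:**
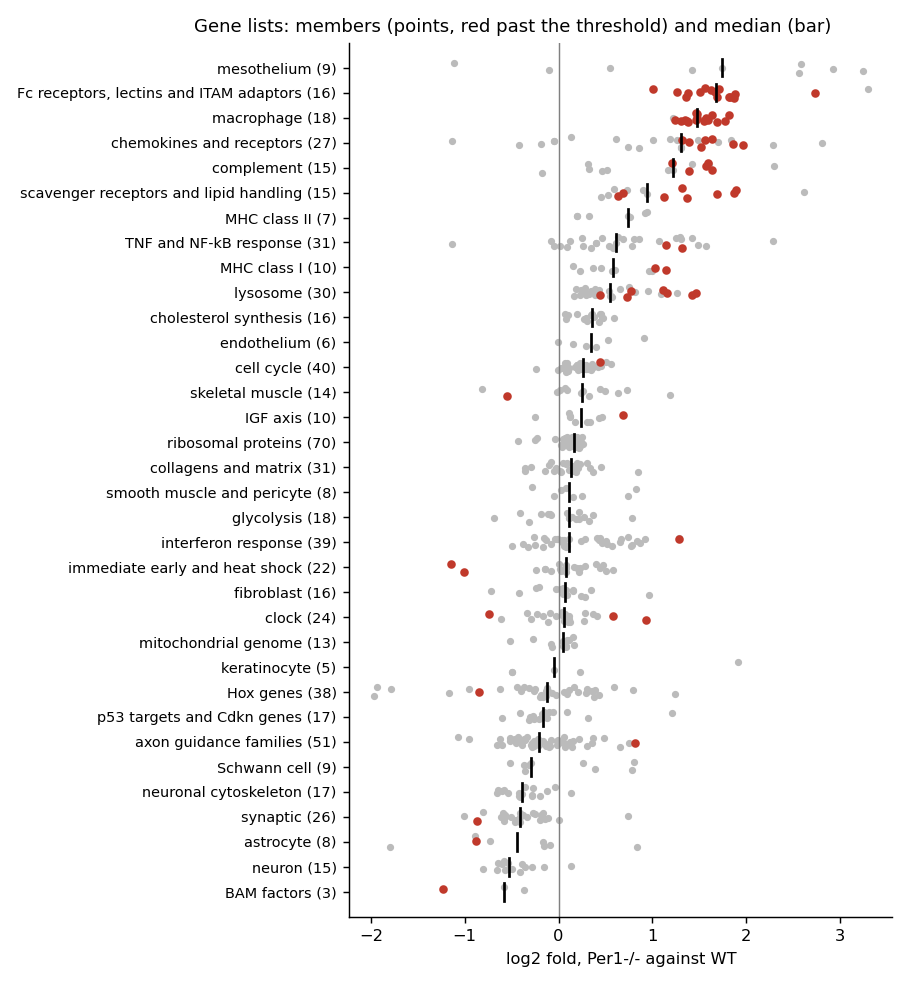
Log2 fold of Per1-/- over WT for the tested members of each gene list (points; red are past the threshold), with the list's median (black bar) and the number of members tested in brackets; the erythroid, other leukocyte and study lists are not drawn. The lists drawn are ordered by median, from -0.58 for the 3 BAM factors to 1.74 for the 9 mesothelium markers. Red points are dense in the lists of macrophage, Fc receptor, scavenger receptor and complement genes.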

How the data were processed

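UMI counts per gene and barcode were used as the authors deposited them, in filtered Cell Ranger matrices. File headers name Cell Ranger 4.0.0 (days 4 and 7, 31053 genes) and 6.0.0 (day 10, 32285 genes), the submitters' processing notes name Cell Ranger 7.1 and mm10, and the 30406 shared gene IDs were used. Doublets were not called, because every kept barcode entered its sum.

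Library sums were fitted in R 4.3.3 with edgeR 4.0.16 (TMM, filterByExpr, glmQLFit and glmQLFTest, Benjamini-Hochberg adjustment over all genes tested, two-sided, threshold 0.05), with day and genotype as factors. All 9 libraries entered the fit (4 residual degrees of freedom), so the Per2-/- libraries bear on the estimate of the spread, the gene filter, the normalisation and the day terms. The pairing comes from the day in the labels, and the deviations of same-day libraries from their group means correlated at 0.758, 0.566 and 0.757 on days 4, 7 and 10. limma 3.58.1, DESeq2 1.42.0, other filters, normalisations and barcode sets were alternatives. The edgeR fit was tested on simulated data.

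Genes were named if they belonged to the clock list, were among the 15 called genes with the smallest p in a direction, passed or were among the 3 with the highest mean CPM in a list, were named by the study, or lay within 10 Mb of Per1 and passed or had a small p. Some genes that the rule names are not reported here. Others were chosen after their values were seen. The comparison, the lists and the limits were chosen with earlier results of these data known. Sequence windows are from RefSeq, GRCm38.p6, and no genome sequence was read by coordinates.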

Additional observations from a re-analysis of the deposited data

Results flagged for a closer look

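The share of kept barcodes with UMI of a Y-linked gene and none of Xist, a measure outside the gene comparison itself, stood above the highest WT library (19.2%) in all 3 Per1-/- libraries. It was 40.9% on day 4, 94.3% on day 7 and 93.6% on day 10.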

How the results depend on the processing

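The 408 higher and 33 lower genes became 195 and 4 in the 6 libraries alone, 977 and 383 in DESeq2 (71.8% of calls higher, against 92.5%), and 206 and 8 with barcodes thinned to 3000 UMI. They became 17 and 79 in macrophage-marked barcodes alone, 171 and 102 without those barcodes in DESeq2, 1 and 0 in barcodes with Y-linked UMI and no Xist (chosen after seeing the data, as were DESeq2 and limma-voom without macrophage-marked barcodes), and 1024 and 624 without day 4. They were 0 and 0 without the replicate block (no day term), without macrophage-marked barcodes in edgeR and limma-voom, with the Y-linked share as covariate, and without day 7 or day 10. Leaving out 1 library gave 105 to 1258 higher and 1 to 822 lower genes. The extremes came without WT of day 7 (105 and 1) and without Per1-/- of day 4 (1258 and 822). The cause was not tested.

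The log2 fold of Per1 missed the threshold at 0.57 in the 6 libraries alone, 0.58 without the block, 0.58 in barcodes of at least 10000 UMI, 0.43 after thinning, 0.64 (edgeR) and 0.63 (limma-voom) without macrophage-marked barcodes, 0.32 in those alone, 0.38 with the Y-linked share, 0.57 in barcodes with Y-linked UMI and no Xist, 0.57 without day 7 and 0.58 without day 10. Without 1 library it was 0.54 to 0.64.

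Without macrophage-marked barcodes 302 of the 380 higher genes that could be tested kept their sign in edgeR, and the named genes that turned sign are given in the order edgeR, DESeq2, limma-voom. They were Bin2 (-0.066, -0.070, -0.055), Cd84 (-0.045, -0.043, -0.063), Ptprc (-0.18, -0.18, -0.10), Mrc1 (-0.028, -0.028, -0.0011), C3ar1 (-0.012, -0.012, -0.011), Msr1 (-0.70, -0.70, -0.78), Abcg1 (-0.025, -0.028, -0.063), Gpnmb (-0.53, -0.53, -0.52), Lgmn (-0.053, -0.055, -0.059), Sema4d (-0.30, -0.30, -0.30) and Slc43a2 (-0.30, -0.30, -0.31), and in limma-voom alone Nrros (-0.0023) and Gm45606 (-0.023). In macrophage-marked barcodes alone Lyn (-0.012), Abcg1 (-0.17), Sema4d (-0.090), Klf14 (-0.057) and Car3 (-0.37) were among the genes that turned sign. Over 164 named genes and 30 settings, 4839 values were computed. Of these, 2971 kept direction and side of the threshold, 1735 lost the call with the same sign and 32 gained it. A further 60 changed sign with no call in either the main fit or the alternative. The last 41 changed sign with a call in the main fit, the alternative or both. Depth limits genes under about 1 CPM, whose folds rest on few UMI.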
